A study of Homo sapiens with 8 samples.

Results

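The mitochondrial ribosome translates the mRNAs of the mitochondrial genome, all of whose protein products belong to the respiratory chain and ATP synthase. Its rRNAs are made inside the organelle, whereas its proteins are encoded in the nucleus as MRPL genes (large subunit) and MRPS genes (small subunit), made in the cytosol and imported. Many of them have a bacterial counterpart, and the others were added in the mitochondrial lineage. Here the mRNAs of these genes were followed in human embryonic kidney cells made to express GFP, or GFP fused to one of 3 RNA-binding proteins: HuR, which binds U-rich and AU-rich elements, and the related TIA1 and TIAR, which bind U-rich stretches and act in splicing and in translational silencing.

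The set was defined by name, as every non-control probe whose gene name was MRPL or MRPS followed by a number and, for some, the letter A, B or C. It held 97 of 50599 probes and 76 of 36337 gene names, with 47 MRPL and 29 MRPS genes. Of the 76 genes, 57 had 1 probe, 17 had 2 and 2 had 3.

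RNA was taken from FT293 cells, HEK293 cells with an integration site for a tetracycline-inducible transgene, at day 3 of tetracycline in all 4 lines. The groups were GFP, GFP-HuR, GFP-TIA1 and GFP-TIAR, called the GFP, HuR, TIA1 and TIAR lines below, with 2 arrays each, described by the submitters as separate biological replicates (the source label of the second TIA1 array reads GFP-TIA2, while its title and genotype read GFP-TIA1). Each line is 1 inducible construct in 1 parental line that also carries the endogenous genes, and the levels of the endogenous proteins are not measured by these arrays. Values are log2 processed signal relative to the 75th percentile of the same array, so a value of 3 lies 3 doublings above that percentile. An array compares shares of an RNA sample, so fewer cells with a transcript and less of it per cell cannot be told apart.

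The probe that stood for each of the 76 genes was flagged by the scanner software as well above background on all 8 arrays. Of the 97 probes, 93 to 94 were well above background on each array. The first GFP array stood apart: 86.0% of all probes counted as well above background on it, against 53.2% to 58.5% on the other 7, and its mean local background was 90.0 against 37.4 to 43.5. On the member genes, 73 of 76 were higher on the second GFP array than on the first. The median absolute difference between the GFP replicates was 0.35 for these genes, against 0.06 for HuR, 0.12 for TIA1 and 0.14 for TIAR. Over probes well above background on both GFP arrays, it was 0.33 for member probes and 0.36 for all probes. The signed median, second minus first, was 0.32 for member probes and 0.13 for all. Of 7 genes known to be expressed in HEK293 cells, 6 had a probe above background on all 8 arrays. Of 7 markers of other cell types, the leukocyte gene PTPRC and the muscle gene DES did too, KRT5 did so on none, and the other 4 on 1 to 6 arrays. As a check of a label, 1 probe for TIAL1, which encodes TIAR, read 4.87 and 4.98 in the TIAR line and at most 2.52 elsewhere. A second TIAL1 probe and those for TIA1 and ELAVL1 (HuR) were not higher in the line of that name, and whether they lie in the transgenes was not determined, so they check nothing. The 2 TIA1 probes read -1.26 to -0.94 and -1.77 to -0.94 on the TIA1 and TIAR arrays, below the other 4 arrays (-0.74 to -0.32 and -0.05 to 0.17).

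The probe sequences on which the results below turn are given here as the scanner files hold them, 5′ to 3′, with hg19 positions. Both MRPL12 probes lie on the plus strand, at chr17:79674001-79674060 and chr17:79673989-79674048, and capitals mark the 48 bases they share.
MRPL12, gene probe: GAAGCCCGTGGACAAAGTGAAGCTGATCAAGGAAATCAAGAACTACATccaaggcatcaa
MRPL12, other probe: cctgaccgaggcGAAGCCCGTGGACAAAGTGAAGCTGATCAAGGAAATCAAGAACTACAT
The genes with the largest fall in the TIA1 line (MRPL24) and in the TIAR line (MRPS9), each against HuR, are read by probes at chr1:156707454-156707513 on the minus strand and chr2:105716308-105716367 on the plus strand.
MRPL24: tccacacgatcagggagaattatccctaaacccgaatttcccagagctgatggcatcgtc
MRPS9: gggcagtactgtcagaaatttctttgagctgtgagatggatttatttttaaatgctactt
For MRPL43 the 2 probes gave different answers. They lie at chr10:102746848-102746907 and chr10:102738244-102738303, both on the minus strand.
MRPL43, gene probe: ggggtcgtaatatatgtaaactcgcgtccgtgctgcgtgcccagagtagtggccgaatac
MRPL43, other probe: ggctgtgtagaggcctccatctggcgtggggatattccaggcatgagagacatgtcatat
The 2 MRPL12 probes are thus close to a repeated measurement of 1 stretch, while the MRPL43 pair reads different parts of the gene. Of the 97 member probes, 85 shared no run of 16 bases with a probe of another gene on the array, and 12 did, with at most 2 such probes each.

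The median mitoribosomal protein mRNA read lower on the TIA1 and TIAR arrays than on the HuR arrays, though most single genes did not pass a test. Relative to each gene's mean over the 8 arrays, the median of the 76 genes lay at 0.19 and 0.15 on the HuR arrays, at -0.05 and -0.04 on the TIA1 arrays and at -0.15 and -0.07 on the TIAR arrays. On the GFP arrays it lay at -0.18 and 0.24, one below and one above the arrays of the other lines. The same quantity over all 21865 measured genes stayed between -0.07 and 0.04. Genes of the 2 names followed the same course: the medians on the 2 HuR arrays were 0.19 and 0.13 for MRPL genes and 0.21 and 0.18 for MRPS genes, and those of the 4 TIA1 and TIAR arrays were between -0.22 and -0.03 for both.

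**Figure D1:**
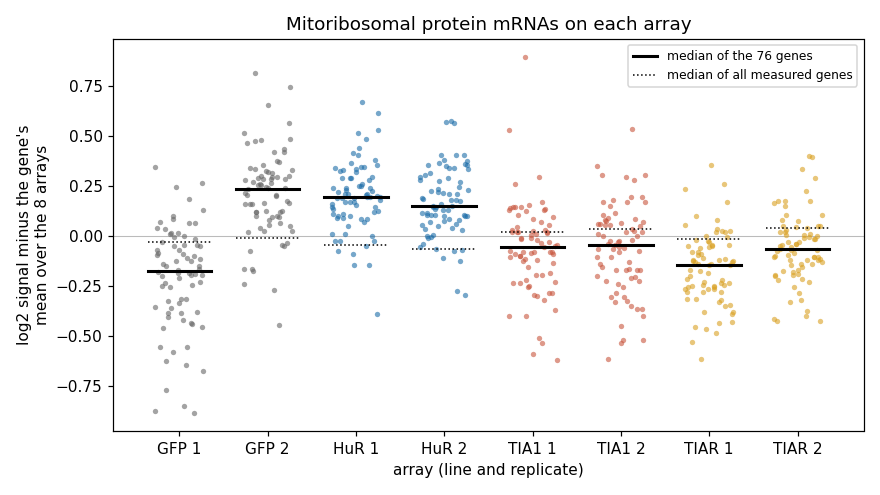
Log2 signal of each of the 76 mitoribosomal protein genes minus that gene's mean over the 8 arrays, by array; 1 point is 1 gene, the thick line is the median of the 76 genes and the dotted line the median of all measured genes. The HuR medians (0.19 and 0.15) lie above those of all 4 TIA1 and TIAR arrays, and the 2 GFP arrays lie on opposite sides of 0 (-0.18 and 0.24).

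The TIA1 line was compared with the HuR line, as in the study. In the limma fit, 19 of the 76 genes were lower in the TIA1 line, 3 were higher and 54 did not pass an adjusted p of 0.05. Over all genes tested the balance was the other way, with 17.3% lower and 24.2% higher. The median log2 fold change of the members was -0.22, against 0.08 over all genes, and 63 of the 76 values were negative. The genes that fell were found under both names (12 of 47 MRPL and 7 of 29 MRPS genes), which do not give the subunit in every case. They came from those with a bacterial counterpart (11 of 48) and from those specific to mitochondria (8 of 27). A change of at least 2-fold was seen for 1 member, a fall, while 4.74% of all genes passed with such a fall and 8.46% with such a rise.

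In the TIAR line against the HuR line, 17 genes were lower, none was higher and 59 did not pass, where 12.2% of all genes were lower and 18.7% higher. The median of the members was -0.31, against 0.06 over all genes, and 68 of the 76 values were negative. The falls were spread over 8 of 47 MRPL and 9 of 29 MRPS genes. None of the members changed by 2-fold, against 2.83% of all genes with a fall and 7.4% with a rise of that size. With all 8 arrays in one fit without weights, 6 members (7.89%) were lower in the TIA1 line and 2 (2.63%) in the TIAR line, against 8.07% and 4.91% of all genes. The members' excess of falls was thus absent there. With array weights in that fit it was present, at 24 members (31.6%, against 19.1%) in the TIA1 line. In the TIAR line it was then at 30 (39.5%, against 15.1%). Leaving either GFP array out of the unweighted fit also gave an excess in both lines. The excess was also absent in the TIAR line with the authors' values (9 members, 11.8%, against 13.6%) and with no filter on dim probes (1.32% against 1.48%). Since the 2 HuR arrays enter both comparisons, these are not independent of each other. The calls needed both HuR arrays: without the first, none of the members passed in either comparison, and without the second 1 passed as lower in the TIA1 line (MRPS9) and none in the TIAR line. Calls were also fewer over all genes, with 3.61% and 3.37% lower in the TIA1 line and 0.293% and 0.279% in the TIAR line, while fold changes were similar (MRPS9 -0.80 without the first and -1.06 without the second, in the TIA1 line). With the array median as the centre, the median of all genes moved to -0.16 and -0.20 and that of the members to -0.47 and -0.58. Then 43 members were lower in the TIA1 line and 53 in the TIAR line, and of all genes 14% were higher and 27.8% lower in the TIA1 line, and 11.4% higher and 26.6% lower in the TIAR line.

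**Figure D2:**
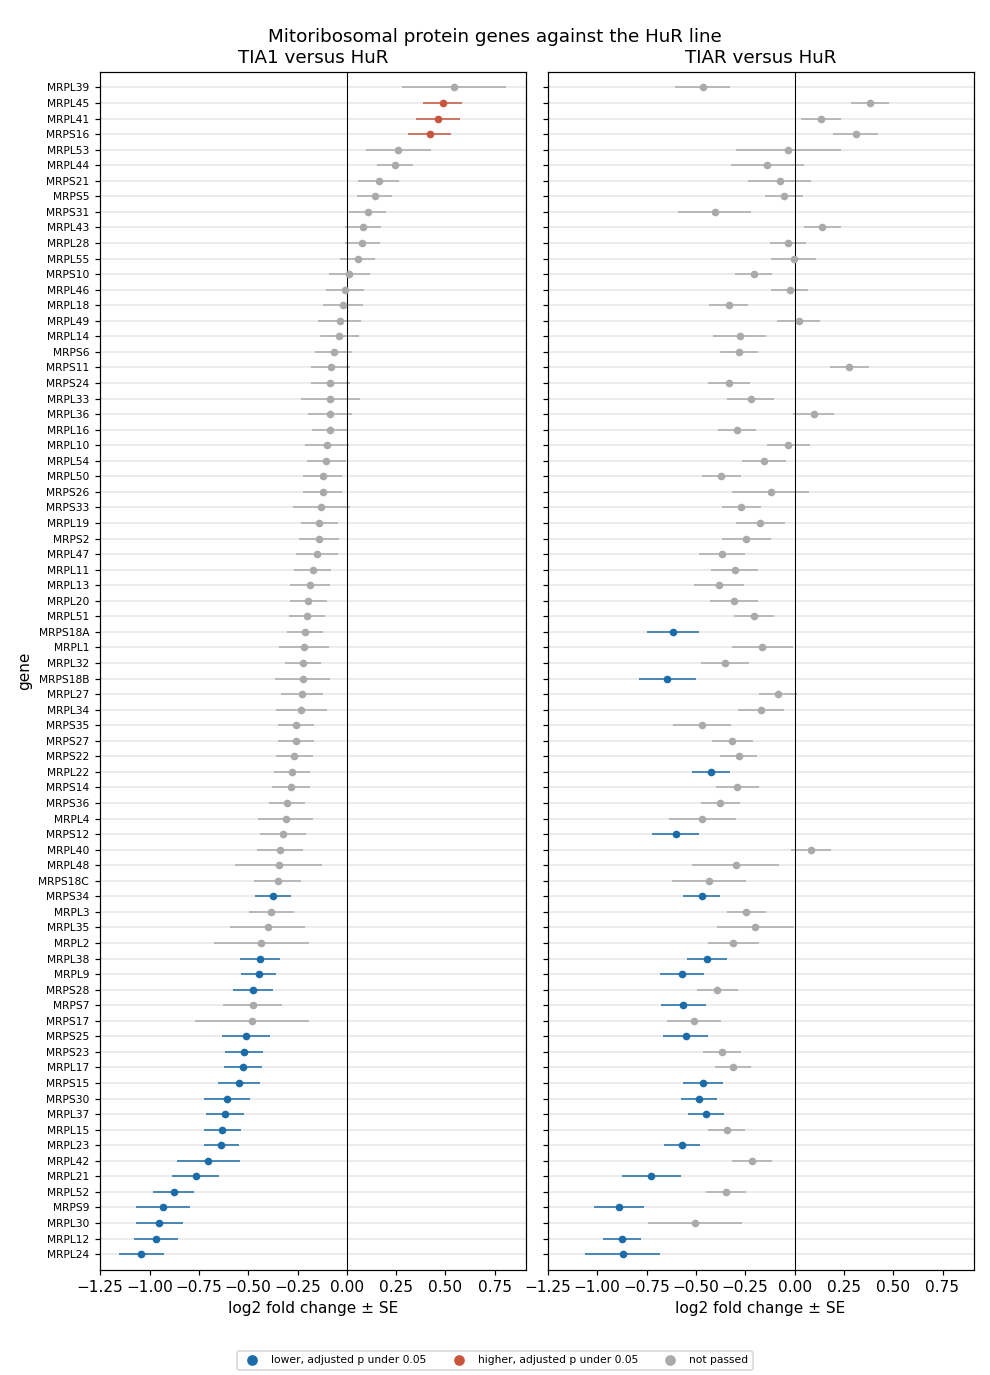
Log2 fold change with its standard error (limma, 2 arrays against 2) for the 76 genes in the TIA1 line (left) and the TIAR line (right), each against the HuR line, in the order of the left panel; blue points were lower and red points higher at an adjusted p under 0.05. Most points lie left of 0 in both panels (63 and 68 of 76), and the 3 red points are MRPL45, MRPL41 and MRPS16 on the left.

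Among large subunit proteins with a bacterial counterpart, MRPL24 changed most in the TIA1 line. Its level was 3.77 and 3.68 in the HuR line, 2.60 and 2.78 in the TIA1 line, 2.62 and 3.09 in the TIAR line, and 2.79 and 3.52 in the GFP line. Both HuR arrays lay above the other 6. It fell by 1.04 in the TIA1 line (SE 0.11, adjusted p = 0.00575), or 2.06-fold, and by 0.87 in the TIAR line (SE 0.19, adjusted p = 0.0352).

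MRPL12 is the protein of the flexible stalk that recruits translation factors, and it has also been described as a partner of the mitochondrial RNA polymerase. Its level was 3.85 and 3.93 in the HuR line and 3.55 and 3.74 in the GFP line, against 2.83 and 3.02 in the TIA1 line and 3.04 and 2.99 in the TIAR line. All 4 TIA1 and TIAR arrays lay below all 4 HuR and GFP arrays. The fall against HuR was by 0.97 in the TIA1 line (SE 0.11, adjusted p = 0.00654) and by 0.88 in the TIAR line (SE 0.10, adjusted p = 0.00911). The overlapping probe gave -0.92 (adjusted p = 0.0158) and -0.97 (adjusted p = 0.0218), from the stretch of which most is shared, as the capitals above show.

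MRPL21 and MRPL30 are both large subunit proteins with bacterial counterparts. MRPL21 read 5.06 and 4.91 in the HuR line, 4.30 and 4.13 in the TIA1 line, 4.10 and 4.41 in the TIAR line, and 4.07 and 5.28 in the GFP line. It fell by 0.77 in the TIA1 line (adjusted p = 0.0120) and by 0.73 in the TIAR line (adjusted p = 0.0321), and its GFP values spanned the whole range of the other lines. MRPL30 read 2.76 and 2.82 in the HuR line, 1.96 and 1.73 in the TIA1 line, 2.61 and 1.97 in the TIAR line, and 1.87 and 2.31 in the GFP line. Again the HuR arrays were the highest. It fell by 0.95 in the TIA1 line (adjusted p = 0.00775), whereas the value of -0.51 in the TIAR line did not pass (adjusted p = 0.180) and the 2 TIAR arrays lay far apart. A second MRPL30 probe was well above background only on the HuR arrays. It was tested only because it was bright there, so it is no separate support for the fall. On those arrays it was at least 1.66-fold higher than in the TIA1 line and at least 2.05-fold higher than in the TIAR line. These bounds set the mean of the HuR arrays against the lowest signal counted as above background on each dim array, or the dim signal itself where that was higher.

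MRPL52 belongs to the proteins without a bacterial counterpart. Its level was 4.48 and 4.52 in the HuR line, 3.55 and 3.69 in the TIA1 line, 4.09 and 4.21 in the TIAR line, and 3.80 and 4.80 in the GFP line. The TIAR arrays lay between those of HuR and TIA1. It fell by 0.88 in the TIA1 line (SE 0.10, adjusted p = 0.00654), and the value of -0.35 in the TIAR line did not pass (adjusted p = 0.0677). Its second probe passed in both, with -0.49 (adjusted p = 0.0435) and -0.62 (adjusted p = 0.0164), so the order of the TIA1 and TIAR lines differed between the probes. Between the TIAR and TIA1 lines the gene probe differed by 0.53 (adjusted p = 0.0980).

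MRPS9, a small subunit protein with a bacterial counterpart, separated the lines as MRPL12 did. It read 2.85 and 2.59 in the HuR line and 2.50 and 2.72 in the GFP line, against 1.86 and 1.71 in the TIA1 line and 1.85 and 1.81 in the TIAR line. There was no overlap between the TIA1 and TIAR arrays on one side and the HuR and GFP arrays on the other. It fell by 0.93 in the TIA1 line (SE 0.13, adjusted p = 0.0105) and by 0.89 in the TIAR line (SE 0.13, adjusted p = 0.0146).

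The paralogs MRPS18A, MRPS18B and MRPS18C derive from 1 bacterial ribosomal protein; despite the shared name, MRPS18A sits in the large subunit. MRPS18A read 2.89 and 2.92 in the HuR line, 2.71 and 2.68 in the TIA1 line, 2.15 and 2.43 in the TIAR line, and 2.64 and 2.43 in the GFP line. MRPS18B read 5.09 and 4.84, 4.84 and 4.65, 4.22 and 4.43, and 4.56 and 4.85 in the same order. In both genes the TIAR arrays were at or below every other array. The falls against HuR in the TIAR line were by 0.62 (adjusted p = 0.0340) and 0.65 (adjusted p = 0.0379), while the values in the TIA1 line, -0.21 (adjusted p = 0.126) and -0.22 (adjusted p = 0.258), did not pass. Directly compared, the TIAR and TIA1 lines differed by -0.41 for MRPS18A (unadjusted p = 0.0398, adjusted p = 0.187) and -0.42 for MRPS18B (unadjusted p = 0.0357, adjusted p = 0.177), which did not pass either. MRPS18C read 4.15 and 3.95 in the HuR line, 3.77 and 3.64 in the TIA1 line, 3.84 and 3.40 in the TIAR line, and 3.69 and 4.00 in the GFP line. Its values of -0.35 and -0.43 did not pass (adjusted p = 0.0801 and 0.153), and the 2 TIAR arrays lay on either side of the TIA1 arrays.

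MRPS12 is the counterpart of the bacterial protein at the decoding site where streptomycin resistance arises. It read 5.07 and 4.91 in the HuR line, 4.75 and 4.59 in the TIA1 line, 4.47 and 4.30 in the TIAR line, and 4.55 and 5.20 in the GFP line. It fell by 0.60 in the TIAR line (adjusted p = 0.0287), and the TIA1 value of -0.32 did not pass (adjusted p = 0.0885). MRPS30, whose product sits in the large subunit despite the name, was 1.93 on both HuR arrays, 1.44 and 1.21 in the TIA1 line, 1.43 and 1.47 in the TIAR line, and 1.46 and 1.74 in the GFP line. It fell in both lines, by 0.61 (adjusted p = 0.0203) and by 0.48 (adjusted p = 0.0262). MRPS36, now renamed KGD4, encodes a subunit of the 2-oxoglutarate dehydrogenase complex and not a ribosomal protein, so it serves here as a member by name only. Its levels were 4.42 and 4.37 in the HuR line, 4.07 and 4.11 in the TIA1 line, 3.96 and 4.08 in the TIAR line, and 4.08 and 4.34 in the GFP line. Its values of -0.30 (adjusted p = 0.0588) and -0.38 (adjusted p = 0.0557) did not pass, although a second probe fell by 0.54 in the TIA1 line (adjusted p = 0.0226).

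The 3 genes that rose in the TIA1 line did so by less than the largest falls. MRPL45, which lies near the exit tunnel and contacts the inner membrane, read 3.82 and 3.91 in the HuR line, 4.30 and 4.40 in the TIA1 line, 4.23 and 4.26 in the TIAR line, and 3.98 and 4.77 in the GFP line. It rose by 0.49 in the TIA1 line (SE 0.10, adjusted p = 0.0240), and its value of 0.38 in the TIAR line just missed the threshold (adjusted p = 0.0502). A second probe, which spans a splice junction, gave 0.39 (adjusted p = 0.0302) and 0.29 (adjusted p = 0.0843).

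MRPL41, a protein specific to mitochondria, read 5.47 and 5.40 in the HuR line, 5.99 and 5.81 in the TIA1 line, 5.51 and 5.63 in the TIAR line, and 4.58 and 5.29 in the GFP line. Its 4 TIA1 and TIAR values were above the other 4, though the lower TIAR value (5.51) was close to the higher HuR value (5.47). The rise in the TIA1 line was by 0.46 (adjusted p = 0.0338), and the TIAR value of 0.13 did not pass (adjusted p = 0.369). MRPS16, a small subunit protein with a bacterial counterpart, read 5.65 and 5.52 in the HuR line, 5.93 and 6.08 in the TIA1 line, 5.82 and 5.97 in the TIAR line, and 5.55 and 5.86 in the GFP line. It rose by 0.42 in the TIA1 line (adjusted p = 0.0435), with a TIAR value of 0.31 (adjusted p = 0.110). This probe shares a run of 16 bases with probes of 2 other genes, and the part of this in the rise was not tested. Its second probe gave -0.17 (adjusted p = 0.203) and -0.02 (adjusted p = 0.869), and with both probes averaged the rise was 0.12 (adjusted p = 0.316). When the array median was used as the centre, none of the 3 rises passed.

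**Figure D3:**
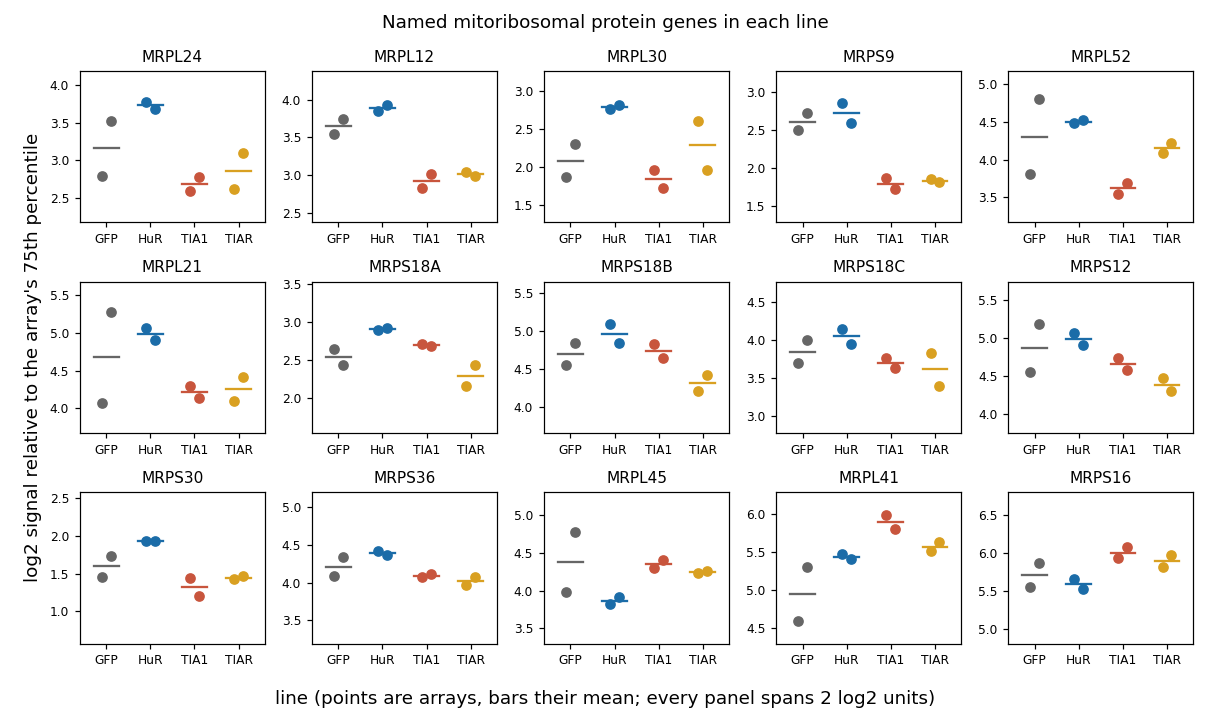
Log2 signal relative to the array's 75th percentile in each line for 15 MRPL and MRPS genes (MRPS36 among them by name only); points are single arrays (2 per line), bars their mean, and every panel spans 2 log2 units around its own centre. MRPL12 and MRPS9 show no overlap between the TIA1 and TIAR arrays and the HuR and GFP arrays, while the GFP pairs of MRPL21 (4.07 and 5.28) and MRPL52 (3.80 and 4.80) are wide apart.

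The other members that passed were all lower. In the TIA1 line these were MRPL42 (-0.70), MRPL23 (-0.64), MRPL15 (-0.63), MRPL37 (-0.62), MRPS15 (-0.55), MRPL17 (-0.53), MRPS23 (-0.52), MRPS25 (-0.51), MRPS28 (-0.48), MRPL9 (-0.45), MRPL38 (-0.44) and MRPS34 (-0.37). In the TIAR line they were MRPL9 (-0.57), MRPL23 (-0.57), MRPS7 (-0.56), MRPS25 (-0.55), MRPS34 (-0.47), MRPS15 (-0.46), MRPL37 (-0.45), MRPL38 (-0.44) and MRPL22 (-0.42). These genes span both subunits, and their adjusted p lay between 0.00980 and 0.0389. The remaining members ranged from -0.48 to 0.54 in the TIA1 line and from -0.51 to 0.38 in the TIAR line without passing. At the upper end stood MRPL39, at 4.59 and 3.87 in the TIA1 line, 3.74 and 3.63 in the HuR line, 3.08 and 3.36 in the TIAR line, and 3.33 and 3.95 in the GFP line. Its value was 0.54 in the TIA1 line (adjusted p = 0.167) and -0.47 in the TIAR line (adjusted p = 0.0710), and its second probe read 0.43 (adjusted p = 0.0581) and -0.50 (adjusted p = 0.112).

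Of the 17 genes with more than 1 tested probe, none had probes that passed in opposite directions. Outside the naming rule, and chosen after its values were seen, MRPL43 showed the widest gap between tested probes in either comparison with HuR. The gene probe read 2.94 and 2.97 in the HuR line, 3.07 and 3.0 in the TIA1 line, 3.06 and 3.13 in the TIAR line, and 3.09 and 3.40 in the GFP line, with 0.14 in the TIAR comparison (adjusted p = 0.315). The other probe, at the position given above, read -2.14 and -2.12 in the HuR line, -2.34 on both TIA1 arrays, -2.98 and -3.09 in the TIAR line, and -1.50 and -2.24 in the GFP line. It fell by 0.91 in the TIAR line (SE 0.10, adjusted p = 0.00888), while its TIA1 value of -0.21 did not pass (adjusted p = 0.127). In the TIA1 comparison the probes lay furthest apart in MRPS18C, MRPL38 and MRPS16, on either side of 0, at -0.35 and 0.45, -0.44 and 0.19, and 0.42 and -0.17.

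**Figure D4:**
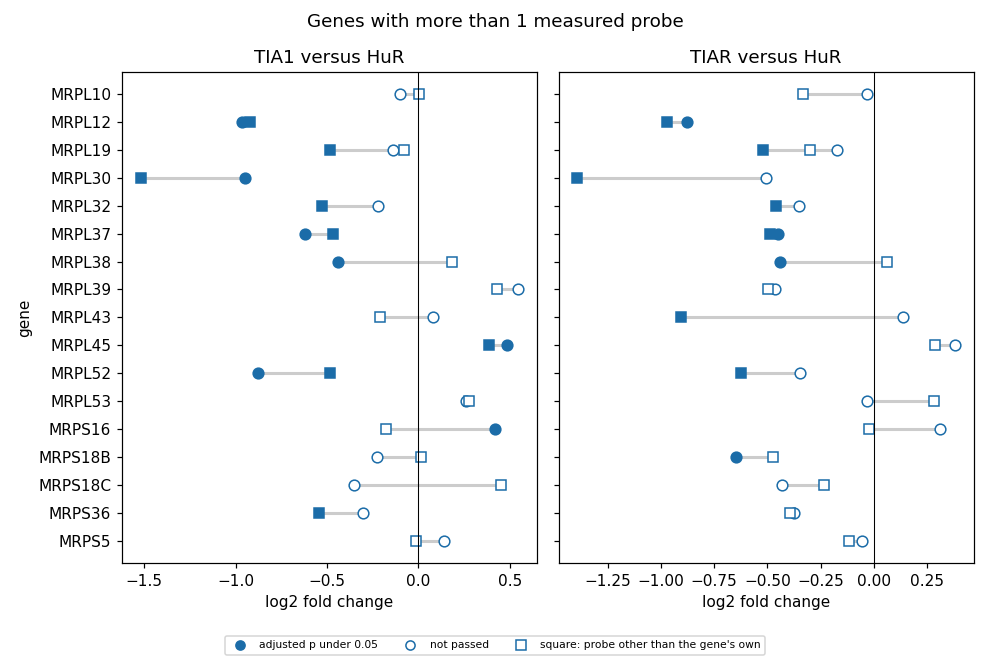
Log2 fold change against the HuR line for every tested probe of the genes with more than 1, in the TIA1 line (left) and the TIAR line (right); circles are the probe that stands for the gene, squares its other probes, and filled marks passed an adjusted p of 0.05. The MRPL30 square rests on signals not above background outside the HuR line. The MRPL12 probes nearly coincide, whereas those of MRPL43 lie at 0.14 and -0.91 on the right and those of MRPS16 at 0.42 and -0.17 on the left.

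The comparisons with the GFP line, the study's control for the tag, gave no calls. At an adjusted p of 0.05, 0% of all genes and none of the members passed in the TIA1, TIAR or HuR line against GFP. At an unadjusted p under 0.05, 3 members were higher and 4 lower in the TIA1 line (12% and 9.46% of all genes), 0 higher and 3 lower in the TIAR line (9.52% and 6.61%), and 6 higher and 0 lower in the HuR line (8.01% and 8.88%). The member medians were -0.10, -0.15 and 0.18. MRPL12, MRPS9 and MRPS25 were the 3 with negative values at that level in both TIA lines: MRPS9 read -0.82 (adjusted p = 0.155) and -0.78 (adjusted p = 0.232) against GFP, MRPL12 -0.72 (adjusted p = 0.178) and -0.63 (adjusted p = 0.270), and MRPS25 -0.73 (adjusted p = 0.176) and -0.77 (adjusted p = 0.234). These comparisons share the GFP arrays.

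What the GFP line showed depended on which of its arrays was used. Without the first GFP array, which stood apart, 4 members were lower and 0 higher in the TIA1 line, 0 passed in the TIAR line, and 2 were higher and 2 lower in the HuR line. Of all genes, 8.63% were then higher and 5.41% lower in the TIA1 line, 5.27% and 1.62% in the TIAR line, and 11.5% each way in the HuR line, so the 5.26% of members lower in the TIA1 line was near the share of all genes. With the first alone, 5 were higher and 1 lower in the TIA1 line, 3 higher in the TIAR line and 32 higher in the HuR line, where 15.6% of all genes were higher and 19.5% lower, 10.4% and 17.5%, and 24.1% and 30.1%. A lone array is assumed in these fits to vary like the arrays of the other line. Taking all 8 arrays without a model, 11 of 76 genes (14.5%) had all 4 TIA1 and TIAR values below all 4 HuR and GFP values, against 9.44% of all genes: MRPL3, MRPL9, MRPL12, MRPL15, MRPL17, MRPL23, MRPL38, MRPS9, MRPS22, MRPS25 and MRPS34. The opposite order was seen for MRPL41 alone, 1.32% of the members, against 13.4% of all genes.

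Between the TIAR and TIA1 lines no member passed, where 1.86% of all genes were higher in TIAR and 1.58% lower. The median difference of the members was -0.05. At an unadjusted p under 0.05, 4 members were higher in TIAR (MRPL40, MRPL42, MRPL52 and MRPS11) and 4 lower (MRPL39, MRPS18A, MRPS18B and MRPS31), against 11.7% of all genes in each direction. The largest of these was MRPL39, at -1.01 (SE 0.28, adjusted p = 0.126).

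The genes that work with the mitoribosome were set beside it. Over all genes, 17.3% were lower and 24.2% higher in the TIA1 line against HuR, and 12.2% and 18.7% in the TIAR line. Of 7 mitoribosomal proteins that carry other names, 4 fell in the TIA1 line (57.1%) and 3 in the TIAR line (42.9%), with medians of -0.42 and -0.31. The largest fall in the TIA1 line was that of ICT1, a peptidyl-tRNA hydrolase built into the large subunit (-1.14, adjusted p = 0.00476), which fell by 0.78 in the TIAR line (adjusted p = 0.0152). MRP63 fell by 0.70 and by 0.60, and CHCHD1 by 0.61 and by 0.92. Of 14 mitochondrial translation factors, 6 fell in each line (42.9%) and none rose (medians -0.38 and -0.31). The elongation factor GFM1 fell by 0.91 (adjusted p = 0.00505) and by 0.90 (adjusted p = 0.00911). The ribosome recycling factor MRRF fell by 0.91 in the TIA1 line, and the release factor gene MTRF1 by 0.79 in the TIAR line. Of 21 mitochondrial tRNA synthetases and formylation genes, 12 (57.1%) and 9 (42.9%) fell and none rose, with medians of -0.69 and -0.55. The largest falls were those of NARS2 (-1.32) and EARS2 (-1.06) in the TIA1 line, and of TARS2 (-1.05) and CARS2 (-1.01) in the TIAR line. All these values are against the same 2 HuR arrays. Against GFP no gene passed, and the TIA1 and TIAR medians were -0.22 and -0.12 for the proteins with other names. They were -0.33 and -0.30 for translation factors, and -0.16 and -0.25 for synthetases and formylation. The HuR medians against GFP were 0.30, 0.02 and 0.28 for the 3 lists.

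The 23 genes for assembly and rRNA modification moved both ways. In the TIA1 line 5 were higher (21.7%, against 24.2% of all genes) and 7 lower (30.4%, against 17.3%). In the TIAR line 3 were higher (13%, against 18.7%) and 5 lower (21.7%, against 12.2%). TFB1M, which methylates the small subunit rRNA, fell by 1.24 (adjusted p = 0.00373) and by 1.33 (adjusted p = 0.00580), while the GTPase gene GTPBP10 rose by 1.17 in the TIA1 line (adjusted p = 0.00946) and GTPBP5 rose in both, by 0.98 (adjusted p = 0.0102) and by 0.94 (adjusted p = 0.0126). Of 81 cytosolic ribosomal proteins, 17 were higher (21%, against 24.2%) and 1 lower (1.23%, against 17.3%) in the TIA1 line. Their median there was 0.25, against 0.08 over all genes. In the TIAR line 4 of these were higher (4.94%, against 18.7%) and 2 lower (2.47%, against 12.2%), with a median of 0.06, as over all genes. The largest changes among these proteins were those of the paralogs RPL39L (-2.47 and -1.14) and RPL3L (1.63 and 2.19). Of 76 nuclear-encoded respiratory chain subunits, 8 were higher (10.5%) and 6 lower (7.89%) in the TIA1 line (median -0.03). In the TIAR line 1 was higher (1.32%) and 7 were lower (9.21%), with a median of -0.15. Each of these shares lay below that of all genes. The complex I gene NDUFA7 fell by 0.96 and by 1.16, NDUFA10 by 0.91 in the TIA1 line and ATP5D by 0.86 in the TIAR line. These values too are against HuR. Against GFP, where no gene passed, the TIA1 and TIAR medians were 0.02 and -0.04 for assembly and rRNA modification. They were 0.46 and 0.28 for cytosolic ribosomal proteins, and 0.29 and 0.18 for respiratory chain subunits. The differences between these lists and the mitoribosomal genes were not tested.

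**Figure D5:**
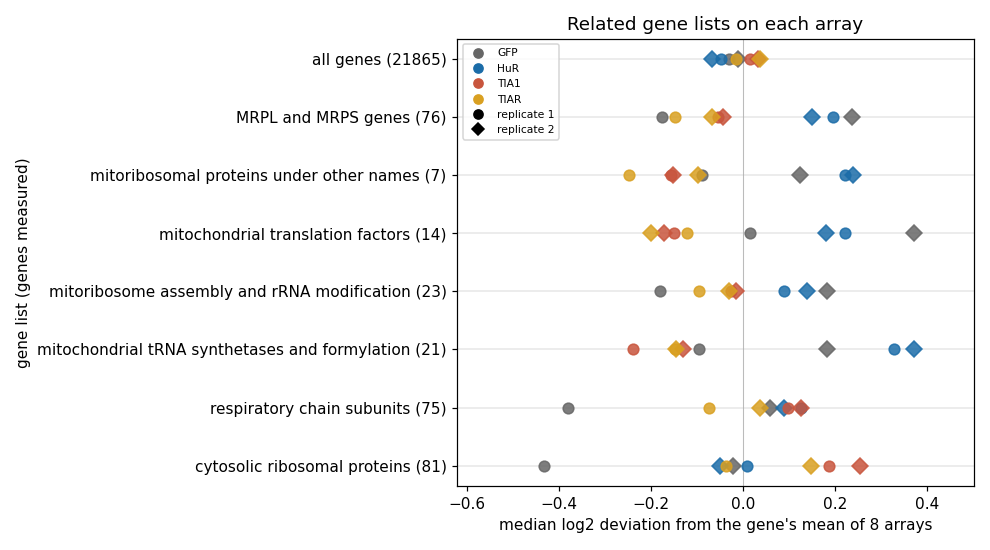
Median over the genes of each list of the log2 signal minus the gene's mean over the 8 arrays, by array; colours are lines, circles first and diamonds second replicates, and the number of genes measured is in brackets. For the MRPL and MRPS genes the HuR points (0.19 and 0.15) lie right of all TIA1 and TIAR points, and for cytosolic ribosomal proteins the TIA1 points lie furthest right (0.19 and 0.25).

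Promoters were read for 3 short motifs tied in the literature to nuclear genes of mitochondria and ribosomes. RefSeq promoters (GRCh38.p14, 300 bases that end just after the gene start) were found for 68 of the 76 genes, 1 of them through the newer symbol KGD4. The ETS family motif ACTTCCG or its reverse complement CGGAAGT was in 12 of 68 member promoters (17.6%), in 7.23% of all 27305 promoters and in 9.79% of the 15843 of protein-coding genes. The NRF1 core GCATGCGC or GCGCATGC was in 6 (8.82%), against 3.27% and 4.26%, and the YY1 core AAGATGG or CCATCTT in 23 (33.8%), against 6.06% and 6.4%. The 2 NRF1 forms can overlap within 1 palindrome and then count as 1 promoter. A match is only a run of letters in this window. The promoters of MRPL52 (chr14:22829637-22829936, plus strand) and MRPS18B (chr6:30617590-30617889, plus strand) are shown because they hold several of these motifs, which capitals mark.
MRPL52 promoter: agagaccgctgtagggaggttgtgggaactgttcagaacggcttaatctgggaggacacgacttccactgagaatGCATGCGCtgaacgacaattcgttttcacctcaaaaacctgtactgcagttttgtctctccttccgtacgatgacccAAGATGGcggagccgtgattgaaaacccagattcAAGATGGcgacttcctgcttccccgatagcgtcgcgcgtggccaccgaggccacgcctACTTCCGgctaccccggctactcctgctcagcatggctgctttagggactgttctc
MRPS18B promoter: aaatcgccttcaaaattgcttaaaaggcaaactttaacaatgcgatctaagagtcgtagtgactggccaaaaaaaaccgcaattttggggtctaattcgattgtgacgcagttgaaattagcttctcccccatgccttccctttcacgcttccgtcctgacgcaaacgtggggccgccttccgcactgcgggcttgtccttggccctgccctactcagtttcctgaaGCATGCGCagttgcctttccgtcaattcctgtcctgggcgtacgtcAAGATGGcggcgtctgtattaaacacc
In the TIA1 line 4 of 23 genes with the YY1 core were lower and 2 higher (median -0.20), and 11 of 45 without it were lower and 1 higher (median -0.23). In the TIAR line 7 of 23 with it and 8 of 45 without it were lower (medians -0.33 and -0.28). For the ETS motif the medians were -0.21 with and -0.21 without it in the TIA1 line, and -0.30 with and -0.30 without it in the TIAR line. For the NRF1 core they were -0.31 and -0.18, and -0.39 and -0.29, with only 6 genes holding it. None of these differences was tested.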

How the data were processed

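RNA from 4 inducible lines, 2 samples each, was hybridised to 8 one-colour Agilent arrays of 1 slide. The authors deposited scanner intensity files made with Agilent Feature Extraction 10.7.3.1, in which the processed signal is background-subtracted and detrended within the array, with the scanner's flags. A deposited log2 table holds the authors' processed values, which limma is named for and whose background correction is not given in the sources used here. It served as an alternative.

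Control and outlier spots were left out, spots of a probe averaged, and log2 processed signal was taken minus each array's 75th percentile. A probe entered a test when the scanner software flagged it as above background on each array of 1 or both of the lines compared. Lines were compared with limma 3.58.1 in R 4.3.3 (lmFit and eBayes, 2 arrays against 2), with Benjamini-Hochberg adjustment over all tested probes and a threshold of 0.05. The brightest tested probe stood for its gene. The fits against HuR were tested on simulated data. With only 200 probes changed, 0 of 50 changes of log2 0.5 were recovered in either comparison, and 5 (TIA1) and 0 (TIAR) of 50 at log2 1. With other probes changed as often as in the data, 32 and 20 of 50 were recovered at log2 0.5. At log2 1 it was then 48 and 45. With 2 arrays per line, their number limits the precision, and p-values measure the spread between these samples.

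Genes were named if they were among the 6 largest rises or falls that passed against HuR (3 in other comparisons), changed at least 2-fold, were MRPS18 paralogs or MRPL12, MRPS12, MRPS30 or MRPS36, or, in other lists, were the 2 largest changes. The members and lists were chosen with earlier results of these data known. Positions of probes come from the array's own design (hg19), and exon or UTR annotation was not used here.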

Additional observations from a re-analysis of the deposited data

How the results depend on the processing

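Against HuR, the member median lay below that of all genes under each of the 12 settings in the TIA1 line and 11 in the TIAR line that can move either median, and no named gene that had passed reversed its direction. Calls of named genes were less stable. In the TIAR line MRPL24, MRPS18A, MRPS18B and MRPS30 each failed to pass in 7 of 17 other settings, and MRPS12 in 6. In the TIA1 line the rises of MRPL45, MRPL41 and MRPS16 failed in 7, 6 and 8. MRPL12 failed in 2 in each line. Counts of calls moved more. For TIA1 against HuR (19 lower, 3 higher), the array median as centre gave 43 and 0 (56.6% lower, against 27.8% of all genes). No filter on dim probes gave 4 and 0 (5.26% lower, against 3.1%). All 8 arrays in one fit gave 6 and 0 (7.89% lower, against 8.07%). The methods' t-test after Benjamini-Hochberg gave 0 and 0 (0% of all genes), and a 2-fold minimum 1 and 0 (1.32%, against 4.74%). An unadjusted p under 0.05 gave 30 lower (39.5%, against 22%) and 4 higher (5.26%, against 30.5%). Leaving out 1 array gave 0 to 21 lower and 0 to 3 higher, with the low counts coming without HuR 1 (0) or HuR 2 (1).

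For TIAR against HuR (17 lower, 0 higher), lower counts were 53 with the array median (69.7%, against 26.6% of all genes). The authors' values gave 9 lower (11.8%, against 13.6%). It was 1 without the filter (1.32%, against 1.48%), 2 with all 8 arrays (2.63%, against 4.91%) and 30 with array weights (39.5%, against 15.1%). The methods' t-test gave 10 (13.2%, against 7.19%) and 0 after its adjustment (0% of all genes). It was 0 at 2-fold (2.83% of all genes) and 38 unadjusted (50%, against 18.7%). Higher counts were 1 with normexp, quantile normalization, both together, a filter on all 4 arrays, array weights or the methods' t-test. They were 2 with the authors' values or unadjusted. These are 1.32% and 2.63% of the members, where 10.2% to 26.8% of all genes were higher. Leaving out 1 array gave 0 to 23 lower and 0 to 1 higher. With a replicate block, 3 members were lower in TIAR (3.95%, against 7.27% of all genes), and 19 were lower and 2 higher in TIA1. The replicate numbers do not pair the samples (correlations of replicate deviations between lines from -0.08 to 0.19).

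Against GFP no member passed. With all 8 arrays in one fit, 2 were higher (2.63%) and 4 lower (5.26%) in TIA1, against 10.9% and 8.09% of all genes. In TIAR 3 were lower (3.95%), against 4.36%. The methods' t-test gave 1 higher and 3 lower in TIA1 (4.59% and 3.33% of all genes), 2 lower in TIAR (2.86%) and 2 higher in HuR (3.25%). Unadjusted p gave 3 and 4, 3 lower, and 6 higher, with the shares of all genes given above. Leaving out 1 array gave 0 to 5 higher and 0 to 4 lower in TIA1, 0 to 3 higher in TIAR, and 0 to 32 higher and 0 to 2 lower in HuR. For TIAR against TIA1, the methods' t-test and unadjusted p each gave 4 higher and 4 lower. Of all genes the t-test gave 6.16% higher and 6.9% lower, and unadjusted p 11.7% each way. Leaving out 1 of the arrays compared gave member medians from -0.12 to -0.004. With all arrays but 1 GFP array in one fit the median was again -0.05. It could not move there, since the GFP arrays do not enter that difference. The unadjusted counts and the fits of all arrays but 1 GFP array were added after seeing the data. The cause of these shifts was not tested.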
